A study of Mus musculus with 12 samples.

Results

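The heavy chain variable segments of the mouse immunoglobulin locus, whose symbols begin with Ighv, were followed in 12 RNA sequencing libraries of sorted spleen B cells. Members were all symbols in the expression tables that start with Ighv, which gave 183 segments among 43613 named genes or groups of genes. Each segment encodes most of the variable domain of an antibody heavy chain. A developing B cell joins 1 of them to a diversity and a joining segment, and only the joined segment is transcribed at a high level, so the transcripts of a pool of B cells record which segments its cells carry. In germinal centres, B cells that bind antigen divide, acquire point mutations in the joined segment, and compete for survival, which is known to let a few clones expand. Spontaneous germinal centres of this kind form in lupus-prone mice.

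All mice were 6-month-old females bred on C57BL/6J and all of them carried Sle1b, a lupus susceptibility interval. B6.Sle1b.IFNaR1-/- mice, labelled as lacking the interferon receptor subunit IFNaR1, are called Ifnar1KO here, and their B6.Sle1b controls are called Sle1b. Germinal centre (GC) B cells were live B220+GL7+CD95+ cells and non-GC B cells were live B220+GL7-CD95- cells, sorted from splenocyte pools. The groups were Ifnar1KO GC, Ifnar1KO non-GC, Sle1b GC and Sle1b non-GC, with 3 libraries each, and each batch of 4 libraries held 1 of every group. Whether libraries of 1 group stem from different animals is not stated, so the p-values reflect how far these libraries vary, and part of that may be technical variation.

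The summed germinal centre markers set GC apart from non-GC libraries in batches 1 and 2 and not in batch 3. The 7 germinal centre markers summed to 285 and 752 FPKM in Ifnar1KO GC and 57.4 and 89.7 FPKM in Ifnar1KO non-GC libraries of batches 1 and 2, and to 496 and 945 FPKM in Sle1b GC and 52.5 and 68 FPKM in Sle1b non-GC libraries. FPKM is the number of fragments per kilobase of transcript and per 1e6 mapped fragments. In batch 3 the same sum was 18.7, 20.7, 20.8 and 19.2 FPKM in the 4 groups in that order. The 6 pan-B markers summed to 19.9 to 221.5 FPKM in batch 3, against 1023.8 to 2002 FPKM in batches 1 and 2. Their sum was lower in GC in every pair. It was 1023.8 and 1759 FPKM in Ifnar1KO GC against 2002 and 1837 FPKM in Ifnar1KO non-GC libraries of batches 1 and 2. It was 1254 and 1653 FPKM in Sle1b GC against 1827 and 1963 FPKM in Sle1b non-GC libraries. In batch 3 it was 22.7 against 221.5 FPKM in Ifnar1KO and 19.9 against 207.9 FPKM in Sle1b libraries. The Ifnar1 transcript went against the genotype labels in batches 1 and 2. It stood at 14.1 and 15.4 FPKM in Ifnar1KO GC against 8.11 and 9.89 FPKM in Sle1b GC, and at 51.1 and 69.1 FPKM in Ifnar1KO non-GC against 14.5 and 36.1 FPKM in Sle1b non-GC libraries. In batch 3 it went with the labels, at 0 FPKM in Ifnar1KO GC against 6.80 FPKM in Sle1b GC and at 2.58 FPKM in Ifnar1KO non-GC against 3.45 FPKM in Sle1b non-GC cells. A sum over the gene does not show whether the transcript was intact, so the genotypes are given here as labelled.

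All 183 segments lay in the heavy chain locus of chromosome 12, between positions 113572927 and 116010093 of build GRCm38, according to the GENCODE vM21 annotation. GENCODE lists 113 of them as variable genes, 69 as pseudogenes and 1, Ighv1-13, as a further variable type. They fall into 16 families by the number after Ighv, with 92 members in family 1. The germline sequence of 5 segments, chosen after their values were seen as those the results turn on, is given, each as the last 300 bases of its variable exon (the exon that follows the leader) on the minus strand. Ighv3-6 led all 4 groups of batch 2 or came second there, Ighv1-26 had the highest mean share, Ighv8-12 and Ighv14-2 had the largest differences between cell types relative to their error in the fit of all 3 batches, and Ighv2-5 led the Ifnar1KO GC library of batch 1. Capitals mark the tetramer AGCT, a known hotspot of somatic hypermutation, which reads the same on both strands.
Ighv3-6: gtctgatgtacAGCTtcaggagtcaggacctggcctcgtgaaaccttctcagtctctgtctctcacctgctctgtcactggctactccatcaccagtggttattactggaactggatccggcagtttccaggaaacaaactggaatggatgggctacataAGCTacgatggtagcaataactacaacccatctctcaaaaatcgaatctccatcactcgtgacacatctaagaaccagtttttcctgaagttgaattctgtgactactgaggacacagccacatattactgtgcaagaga
Ighv1-26: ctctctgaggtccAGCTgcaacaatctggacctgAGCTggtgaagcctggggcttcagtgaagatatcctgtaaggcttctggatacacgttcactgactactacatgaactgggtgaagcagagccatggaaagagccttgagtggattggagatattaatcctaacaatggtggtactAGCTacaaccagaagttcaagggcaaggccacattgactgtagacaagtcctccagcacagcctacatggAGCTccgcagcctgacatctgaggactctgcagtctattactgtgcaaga
Ighv8-12: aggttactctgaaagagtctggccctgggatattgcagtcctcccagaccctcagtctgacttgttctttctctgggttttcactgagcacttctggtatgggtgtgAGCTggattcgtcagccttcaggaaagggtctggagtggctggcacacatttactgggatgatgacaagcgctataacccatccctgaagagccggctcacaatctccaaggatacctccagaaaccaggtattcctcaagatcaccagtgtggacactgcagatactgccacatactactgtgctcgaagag
Ighv14-2: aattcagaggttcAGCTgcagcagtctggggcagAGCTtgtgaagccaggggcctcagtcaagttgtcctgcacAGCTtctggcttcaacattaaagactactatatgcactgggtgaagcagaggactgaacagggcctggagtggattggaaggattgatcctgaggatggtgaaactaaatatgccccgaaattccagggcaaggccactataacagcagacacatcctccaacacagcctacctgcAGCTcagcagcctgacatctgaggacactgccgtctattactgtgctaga
Ighv2-5: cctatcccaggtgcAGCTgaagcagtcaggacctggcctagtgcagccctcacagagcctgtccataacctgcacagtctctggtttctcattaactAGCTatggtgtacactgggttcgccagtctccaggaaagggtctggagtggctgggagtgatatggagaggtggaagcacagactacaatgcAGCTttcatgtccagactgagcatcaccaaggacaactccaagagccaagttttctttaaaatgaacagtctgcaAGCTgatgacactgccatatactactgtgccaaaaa
The windows span chr12:114288152-114288451 for Ighv3-6, chr12:114788372-114788671 for Ighv1-26, chr12:115647945-115648244 for Ighv8-12, chr12:113994469-113994768 for Ighv14-2 and chr12:113685482-113685781 for Ighv2-5. The tetramer occurs 2 times in Ighv3-6, 4 times in each of Ighv1-26, Ighv14-2 and Ighv2-5, and 1 time in Ighv8-12. It is present in the same window of 109 of the 113 variable genes (96.5%), with a median of 3 copies. Many segments differ from a relative at few positions. Ighv1-26 is 97.3% identical to Ighv1-18 over the window, Ighv14-2 is 97% identical to Ighv14-1, Ighv2-5 is 97.7% identical to Ighv2-4, Ighv8-12 is 95.7% identical to Ighv8-13 and Ighv3-6 is 93.3% identical to Ighv3-1. Of the 104 variable genes above 0 in any library, 28 have a relative at 97% identity or more. Reads of such segments can be assigned to the wrong relative, so the values of single segments carry that uncertainty.

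Summed over all segments, Ighv levels were lower in GC than in non-GC libraries in 6 of 6 pairs of the same genotype and batch. The sum was 1139, 333 and 39.6 FPKM in the Ifnar1KO GC libraries of batches 1, 2 and 3, against 2588, 788 and 74.6 FPKM in the Ifnar1KO non-GC libraries. It was 1403, 525 and 62 FPKM in the Sle1b GC libraries, against 2132, 1202 and 225.2 FPKM in the Sle1b non-GC libraries. The ratio of GC to non-GC ran from 0.275 to 0.658. Batch 3 lay below every library of batches 1 and 2, so the groups overlapped across batches and the pairs within a batch carry the comparison. Fewer cells with a given segment and less Ighv RNA per cell cannot be told apart in bulk libraries. Whether mutated reads were lost in alignment to the germline build was not tested. As a share of all named FPKM, Ighv made up 0.195% and 0.106% in Ifnar1KO GC and 0.908% and 0.233% in Ifnar1KO non-GC libraries of batches 1 and 2, and 0.202% and 0.161% in Sle1b GC and 0.795% and 0.325% in Sle1b non-GC libraries. In batch 3 this share was higher in GC, at 0.0366% against 0.0135% in Ifnar1KO and 0.0571% against 0.0537% in Sle1b libraries, so the direction held in 4 of 6 pairs on this scale. Loci without a gene name, left out of this share, held 99.5% and 72.4% of all FPKM in Ifnar1KO GC against 26.7% and 40.5% in Ifnar1KO non-GC, and 74.7% and 45.25% in Sle1b GC against 93.55% and 28.2% in Sle1b non-GC libraries of batches 1 and 2. In batch 3 they held 99.6% to 99.95%. Their share was thus higher in GC in 3 of the 4 pairs of batches 1 and 2, and its part in the Ighv differences was not tested.

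The Ighv sum was also lower in GC beside that of the constant genes, which encode the rest of the heavy chain, in batches 1 and 2. Relative to the heavy constant genes (Ighm, Ighd, Ighg1, Ighg2b, Ighg2c, Ighg3, Igha and Ighe, in 7 measured items), the Ighv sum was 56.1% and 11% in Ifnar1KO GC libraries of batches 1 and 2, against 106.4% and 28.6% in Ifnar1KO non-GC libraries. It was 45.7% and 21.9% in Sle1b GC libraries, against 93.55% and 32.4% in Sle1b non-GC libraries. All 4 pairs of batches 1 and 2 were lower in GC, whereas batch 3 gave 26.45% against 15.5% in Ifnar1KO and 38.6% against 38.5% in Sle1b libraries. Beside the variable segments of the kappa light chain, Igkv, the Ighv sum was 95.4% to 147.7% of the Igkv sum in the GC libraries and 99.7% to 121.3% in the non-GC libraries of batches 1 and 2. In batch 3 it was 100.5% against 36% in Ifnar1KO and 113.2% against 67.9% in Sle1b libraries, GC against non-GC. The Igkv sum was 29.4% and 15.8% of the kappa constant gene in Ifnar1KO GC against 68.3% and 35.2% in Ifnar1KO non-GC libraries of batches 1 and 2. It was 34.8% and 25.5% in Sle1b GC against 59.4% and 31.45% in Sle1b non-GC libraries. Batch 3 went the other way, at 55.75% against 38.3% in Ifnar1KO and 154.2% against 45.2% in Sle1b libraries.

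**Figure D1:**
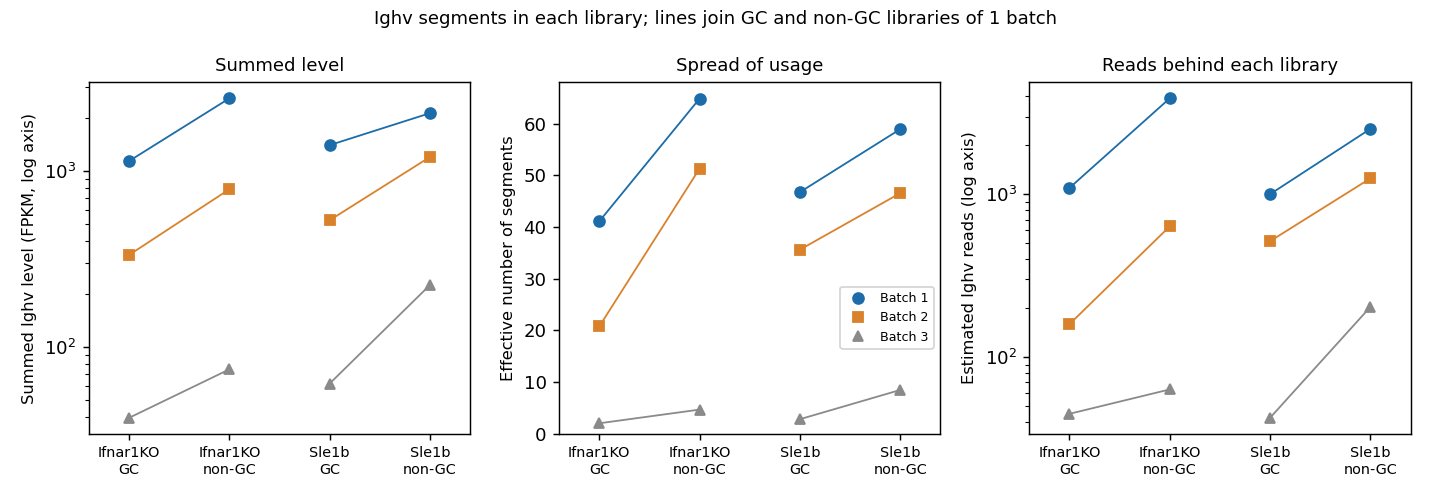
Summed Ighv FPKM (left, log axis), effective number of segments (middle) and estimated Ighv reads (right, log axis) in each of the 12 libraries, by group and batch; lines join the GC and non-GC libraries of 1 genotype and batch. Every line goes up towards non-GC, and the batch 3 library lies lowest in every group, with 42.4 to 203.4 reads on all segments together.

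The reads behind these values were few and unequal. The FPKM of low loci were whole multiples of the value of 1 read, from which Ighv reads were estimated at 1095, 159 and 44.8 in Ifnar1KO GC, 3894, 636 and 63.3 in Ifnar1KO non-GC, 1003, 516 and 42.4 in Sle1b GC, and 2527, 1254 and 203.4 in Sle1b non-GC libraries. A segment with 0 reads could thus hold up to 0.274% of Ighv reads in the Ifnar1KO GC library of batch 1, 1.89% in that of batch 2 and 6.67% in that of batch 3. Such limits, like the intervals given further on, cover counting error only, since amplified reads without molecular identifiers are not independent molecules.

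Of the 183 segments, 127 were above 0 in at least 1 library and 56 were listed at 0 in all 12. Among variable genes 104 of 113 were above 0, and among pseudogenes 23 of 69. The segments above 0 numbered 55, 33 and 4 in Ifnar1KO GC against 109, 75 and 8 in Ifnar1KO non-GC libraries, and 79, 55 and 4 in Sle1b GC against 91, 86 and 11 in Sle1b non-GC libraries. GC libraries held fewer in every pair, and they also held fewer reads in every pair. No segment was above 0 in all 12 libraries, and 14 were above 0 in all 8 libraries of batches 1 and 2: Ighv1-19, Ighv1-26, Ighv1-50, Ighv1-52, Ighv1-53, Ighv1-55, Ighv1-64, Ighv1-72, Ighv2-2, Ighv3-6, Ighv4-1, Ighv6-3, Ighv9-4 and Ighv14-2. Nearly all segments seen in a GC library were also seen in its non-GC partner in batch 1, with 54 of 55 in Ifnar1KO and 73 of 79 in Sle1b cells. In batch 2 this held for 28 of 33 in Ifnar1KO cells, where the other 5 segments carried 29% of the GC signal, and for 49 of 55 in Sle1b cells. The reverse share was smaller: the GC library held 49.5% of the segments of its non-GC partner in Ifnar1KO and 80.2% in Sle1b cells of batch 1, and 37.3% and 57% in batch 2.

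The signal was also concentrated on fewer segments in GC cells. The effective number, the count of equally used segments that would give the same Shannon entropy of shares, was 41.1, 20.8 and 2.03 in Ifnar1KO GC against 64.8, 51.3 and 4.68 in Ifnar1KO non-GC libraries. It was 46.7, 35.6 and 2.82 in Sle1b GC against 58.9, 46.5 and 8.47 in Sle1b non-GC libraries. GC lay below non-GC in 6 of 6 pairs, and the mean difference was -14.3 segments (SD 10.8, n = 6 pairs). Without batch 3, where the germinal centre markers did not set the cell types apart, it was -19.3 segments (SD 9.43, n = 4 pairs). Within batches 1 and 2 the 4 GC libraries spanned 20.8 to 46.7 and the 4 non-GC libraries 46.5 to 64.8, so they overlapped at their edges, through the Sle1b GC library of batch 1 and the Sle1b non-GC library of batch 2. No p-value is given for a score over these segments.

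Measures that allow for the number of reads, chosen after the data were seen, gave the same order. They treat each estimated read as an independent molecule, which amplified reads without molecular identifiers are not. The part of the number of sorted cells or input molecules was not tested. Drawing 150 reads without replacement from each library, 43.8 and 32.4 different segments would be expected in Ifnar1KO GC and 59.6 and 55.3 in Ifnar1KO non-GC libraries of batches 1 and 2. The same draw would give 49 and 42 segments in Sle1b GC against 56.7 and 54.1 in Sle1b non-GC libraries, so these 4 pairs did not overlap between cell types. The inverse Simpson index, which weights the frequent segments most and was taken from the estimated reads, was 27.7, 17.3 and 1.62 in Ifnar1KO GC against 49.7, 38.3 and 4.01 in Ifnar1KO non-GC libraries. It was 35.7, 25.5 and 2.30 in Sle1b GC against 47.5, 28.2 and 7.49 in Sle1b non-GC libraries, lower in GC in 6 of 6 pairs. In the Ifnar1KO GC library of batch 2, pseudogenes held 23% of the signal and in that of batch 3 80.6%, against 1.26% in batch 1, and the part of this in the differences was not tested.

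Between genotypes the effective number had no common direction over the 6 pairs. In GC cells it was 41.1 in the Ifnar1KO against 46.7 in the Sle1b library of batch 1, 20.8 against 35.6 in batch 2 and 2.03 against 2.82 in batch 3. In non-GC cells it was 64.8 against 58.9 in batch 1, 51.3 against 46.5 in batch 2 and 4.68 against 8.47 in batch 3. Ifnar1KO was thus lower in 3 of 3 GC pairs and in 1 of 3 non-GC pairs, with a mean difference over all 6 of -2.40 segments (SD 7.62), smaller than the spread between pairs. The number of reads was higher in the Ifnar1KO than in the Sle1b GC library of batches 1 and 3 and lower in batch 2.

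The single most abundant segment differed between libraries. In batch 1 it was Ighv2-5 with 7.92% of the Ighv signal in Ifnar1KO GC, Ighv3-6 with 5.29% in Ifnar1KO non-GC, Ighv1-76 with 6.05% in Sle1b GC and Ighv1-9 with 5.57% in Sle1b non-GC cells. In batch 2 Ighv6-4 led in Ifnar1KO GC cells with 13.1%, and Ighv3-6 led in the other 3 groups. In batch 3 the pseudogene Ighv3-2 held 78.9% in Ifnar1KO GC, Ighv8-6 41.7% in Ifnar1KO non-GC, Ighv5-17 46.5% in Sle1b GC and Ighv1-26 27.8% in Sle1b non-GC cells. The leading share was higher in GC than in non-GC in 5 of 6 pairs, with a mean difference of 9.87 percentage points (SD 15.2) that was 0.843 (SD 1.83, n = 4 pairs) without batch 3. No segment led more than 1 GC library. Ighv2-5 was at 0 in the Ifnar1KO GC library of batch 2 and second with 5.98% in the Sle1b GC library of that batch, where Ighv3-6 led with 12.4% and was second with 12.1% in Ifnar1KO GC cells. Ighv6-4 was at 0 in the 11 other libraries, and Ighv1-76 was at 0 in both GC libraries of batch 2.

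Within batches 1 and 2, the share of Ighv3-6 separated the batches and not the cell types or genotypes. Its share was 2.86% and 12.1% in Ifnar1KO GC and 5.29% and 11.3% in Ifnar1KO non-GC libraries of batches 1 and 2, and 4.52% and 12.4% in Sle1b GC and 3.43% and 14% in Sle1b non-GC libraries. The 4 libraries of batch 2 therefore lay at 11.3% to 14% and the 4 of batch 1 at 2.86% to 5.29%, without overlap. In batch 3 it was at 0% in Ifnar1KO GC against 26.3% in Ifnar1KO non-GC, and at 0% in both Sle1b libraries. Batch and mice cannot be told apart here, since the labels give no animal. Ighv1-26, the segment with the highest mean share over the 12 libraries, was at 1.67%, 4.69% and 8.92% in Ifnar1KO GC against 4.3%, 2.68% and 0% in Ifnar1KO non-GC libraries, and at 3.84%, 3.68% and 42.2% in Sle1b GC against 4.62%, 7.68% and 27.8% in Sle1b non-GC libraries. Its rank rested on batch 3, where the Sle1b libraries held most of it.

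**Figure D2:**
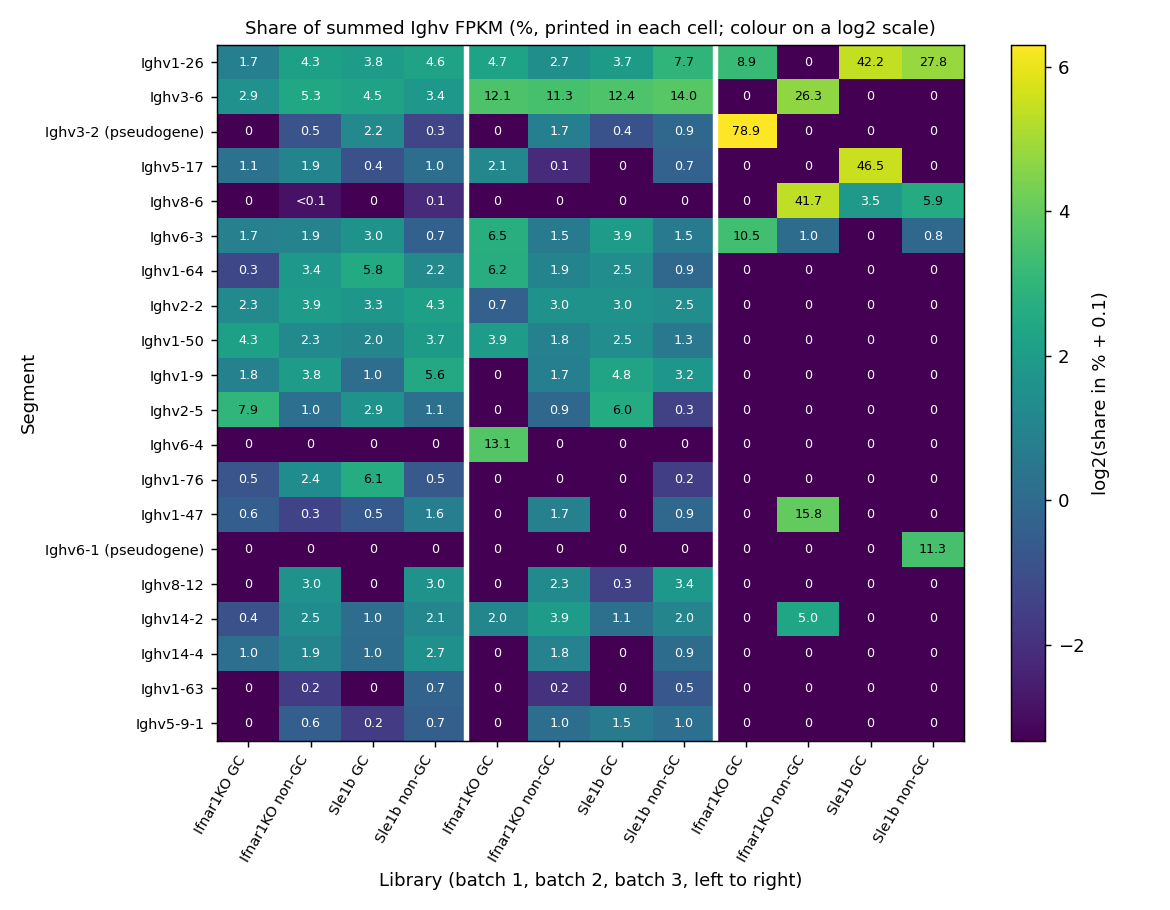
Share of the summed Ighv FPKM (%) held by 20 segments (rows) in each library (columns; batch 1, 2 and 3 from left to right, each in the order Ifnar1KO GC, Ifnar1KO non-GC, Sle1b GC, Sle1b non-GC). Ighv3-6 stands at 11.3% to 14% across batch 2, Ighv8-12 is at 0 or 0.267% in the GC columns of batches 1 and 2, and batch 3 has most segments at 0.

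Ighv8-12 was at or near 0 in the GC libraries of batches 1 and 2 and above 2% of the signal in their non-GC partners. It was listed at 0 FPKM in both Ifnar1KO GC libraries, against 78 and 17.8 FPKM in the Ifnar1KO non-GC libraries, and at 0 and 1.40 FPKM in the Sle1b GC libraries, against 63.4 and 40.5 FPKM in the Sle1b non-GC libraries. In reads this was 0 of 1095 and 0 of 159 in Ifnar1KO GC, 111 of 3894 and 14 of 636 in Ifnar1KO non-GC, 0 of 1003 and 1 of 516 in Sle1b GC, and 72 of 2527 and 41 of 1254 in Sle1b non-GC libraries. The exact 95% binomial (Clopper-Pearson) upper bound was 0.336% in Ifnar1KO GC and 0.367% in Sle1b GC cells of batch 1, and the lower bounds of the non-GC libraries of that batch were 2.35% and 2.24%. In batch 2 the intervals met in Ifnar1KO cells, with 0% to 2.29% in GC and 1.21% to 3.67% in non-GC, and did not meet in Sle1b cells, with 0.00491% to 1.08% in GC and 2.36% to 4.41% in non-GC. In batch 3 it was listed at 0 in all 4 libraries, where 1.48% to 7.14% of Ighv reads could have been missed.

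The test across all genes did not call it, or any other segment, when all 3 batches were used. Values of log2(FPKM + 1) were fitted with limma over the 12 libraries with batch as a block, for the 14607 genes that reached 1 FPKM in 3 or more libraries, 93 of them Ighv, and p-values were adjusted by Benjamini-Hochberg over all genes at a threshold of 0.05. For GC against non-GC averaged over genotypes, 4 of all genes were called (0.0274%), among them the division gene Mki67, and 0 of 93 Ighv segments, with 31 Ighv segments (33.3%) at an unadjusted p under 0.05, all lower in GC, where 17.5% of all genes had such a p in either direction. The log2 difference of the median Ighv segment was -0.85, against -0.25 for the median of all genes, and 81 of the 93 were below 0. The 6 pan-B markers, of which 0 were called, all lay below 0 as well, with a median of -1.37. A segment could pass the filter through non-GC libraries alone, as Ighv8-12 did. The directions of the 93 and of the 31 are therefore not independent of the filter, and segments that passed in this way were not counted. Among the Ighv segments, Ighv14-2 had the smallest adjusted p, with a log2 difference of -1.87 (SE 0.43, adjusted p = 0.0938), and Ighv8-12 followed with -3.44 (SE 0.82, adjusted p = 0.0949). In the separate genotypes 0 of 93 were called as well. Of all genes 0% were called in Sle1b and 0.00685% in Ifnar1KO cells. In Sle1b cells 11 Ighv segments (11.8%) had an unadjusted p under 0.05, near the 9.5% of all genes, and in Ifnar1KO cells 22 (23.7%) had, where 12.3% of all genes did. These segments were lower in GC in every case.

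Restricting the fit to batches 1 and 2, with the filter redone on their 8 libraries, changed that count. There, 393 of 13764 genes (2.86%) were called in the averaged comparison, and 6 of 104 Ighv segments (5.77%), all lower in GC. Ighv8-12 differed by -5.16 (SE 0.57, adjusted p = 0.0108 from limma), Ighv14-4 by -2.90 (SE 0.47, adjusted p = 0.0282) and Ighv14-2 by -2.25 (SE 0.38, adjusted p = 0.0287). Ighv1-63 differed by -2.72 (SE 0.50, adjusted p = 0.0359), Ighv5-9-1 by -2.44 (SE 0.48, adjusted p = 0.0426) and Ighv2-2 by -1.69 (SE 0.36, adjusted p = 0.0499), on the log2(FPKM + 1) scale, which understates changes of low values. It was the only one of 17 alternatives in which any segment was called: with batch 3 left out and the filter kept as it was, 0 of 93 passed and Ighv8-12 had an adjusted p of 0.0744. The 6 calls therefore depend on which genes enter the fit, and they concern levels, whose sum over Ighv was lower in GC as well. Ighv1-63 was listed at 0 FPKM in the GC libraries of batches 1 and 2. It stood at 5.85 and 1.32 FPKM in Ifnar1KO non-GC and at 15.6 and 6.15 FPKM in Sle1b non-GC libraries. Ighv1-63 and Ighv8-12 thus reached 1 FPKM in enough libraries only through non-GC cells, so their direction is not independent of the filter.

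Counted in FPKM, 27 of 104 segments (26%) were lower in GC in 4 of 4 pairs of batches 1 and 2, where 19.5% of all 13764 genes were, and 0 were higher in 4 of 4, where 7.66% of all genes were. The 27 include Ighv8-12 and Ighv1-63, which passed the filter only through non-GC cells. The direction of such segments is not independent of the filter, and the count was not repeated without them. Taken as shares, which set the lower sum aside, of the 122 segments above 0 in any of these 8 libraries, 9 were lower in GC in all 4 pairs and 1 was higher. These were named after their values were seen. Directions of shares were not counted over all genes, so no background stands beside these counts and no excess is claimed. The lower ones were Ighv8-12, Ighv14-2, Ighv14-4, Ighv10-3, Ighv9-3, Ighv1-85, Ighv1-58, Ighv1-63 and Ighv1-7, and the higher one was Ighv4-1. Ighv14-2 was at 0.419% and 2.01% in Ifnar1KO GC against 2.49% and 3.85% in Ifnar1KO non-GC libraries, and at 0.988% and 1.08% in Sle1b GC against 2.07% and 1.96% in Sle1b non-GC libraries. Its lowest non-GC share, 1.96%, lay below its highest GC share. Ighv14-4 was at 1.04% and 0% in Ifnar1KO GC against 1.92% and 1.84% in Ifnar1KO non-GC, and at 0.968% and 0% in Sle1b GC against 2.74% and 0.944% in Sle1b non-GC libraries. Ighv4-1 was at 2.35% and 2.5% in Ifnar1KO GC against 0.598% and 0.995% in Ifnar1KO non-GC, and at 0.742% and 0.971% in Sle1b GC against 0.252% and 0.697% in Sle1b non-GC libraries. Its level was not called by limma, at 0.18 on the log2 scale (SE 0.40, adjusted p = 0.855).

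**Figure D3:**
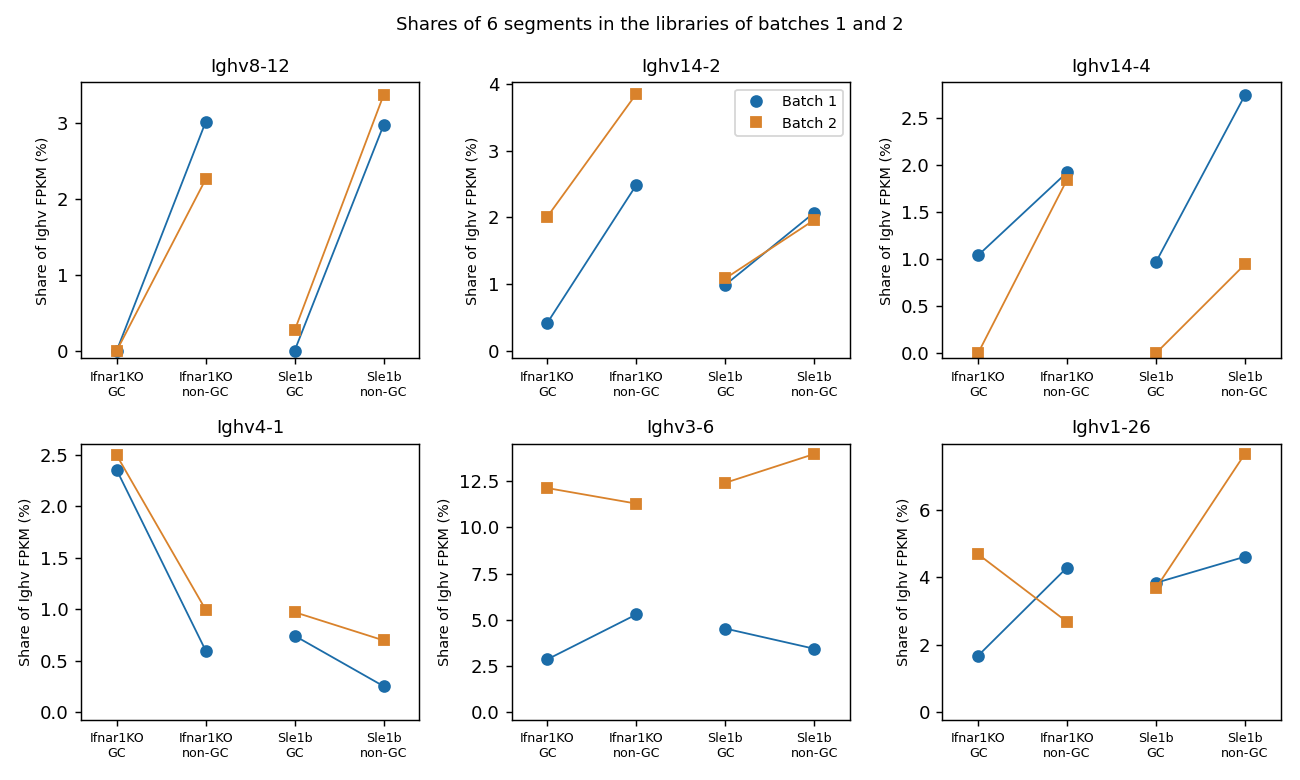
Share of the summed Ighv FPKM (%) of Ighv8-12, Ighv14-2, Ighv14-4, Ighv4-1, Ighv3-6 and Ighv1-26 in the 8 libraries of batches 1 and 2; lines join GC and non-GC libraries of 1 genotype and batch. Ighv8-12 goes to between 0% and 0.267% in GC, against 2.26% to 3.37% in non-GC, while Ighv3-6 separates the batches.

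None of the other segments named by their mean share, their lead or their share difference was higher or lower in GC in all 6 pairs. Ighv2-5 was at 7.92% and 0% in Ifnar1KO GC against 1.03% and 0.858% in Ifnar1KO non-GC libraries of batches 1 and 2, and at 2.91% and 5.98% in Sle1b GC against 1.06% and 0.261% in Sle1b non-GC libraries, higher in GC in 3 of 4 pairs. Ighv6-3 was at 1.73% and 6.54% in Ifnar1KO GC against 1.86% and 1.49% in Ifnar1KO non-GC, and at 2.99% and 3.94% in Sle1b GC against 0.701% and 1.51% in Sle1b non-GC libraries. Ighv2-2 was at 2.29% and 0.667% in Ifnar1KO GC against 3.93% and 3% in Ifnar1KO non-GC, and at 3.27% and 3.02% in Sle1b GC against 4.29% and 2.55% in Sle1b non-GC libraries. Ighv1-64, Ighv1-50 and Ighv1-9 ranged over 0.326% to 6.22%, 1.34% to 4.34% and 0% to 5.57% in these 8 libraries. Ighv5-17, Ighv8-6, Ighv1-47 and the pseudogenes Ighv3-2 and Ighv6-1 owed their place to batch 3, where their highest shares were 46.5%, 41.7%, 15.8%, 78.9% and 11.3% in that order. In batches 1 and 2 they held at most 2.22%. Ighv8-6 was lower in GC in 4 pairs, higher in 0 and at 0 on both sides in the others.

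By family, the makeup of batches 1 and 2 was led by family 1 in every library. It held 49.7% and 48.1% in Ifnar1KO GC against 55.4% and 47.6% in Ifnar1KO non-GC, and 58.4% and 49.9% in Sle1b GC against 58% and 46% in Sle1b non-GC libraries. Family 8 was lower in GC in 6 of 6 pairs, at 2.62%, 0% and 0% in Ifnar1KO GC against 6.24%, 5.68% and 41.75% in Ifnar1KO non-GC, and at 3.23%, 3.47% and 3.54% in Sle1b GC against 6.50%, 6.08% and 29.95% in Sle1b non-GC libraries. Its listed GC and non-GC values did not overlap, and it holds Ighv8-12. Ighv8-12 alone held 3.015% and 2.26% in Ifnar1KO non-GC and 2.97% and 3.37% in Sle1b non-GC libraries of batches 1 and 2. Without Ighv8-12, the rest of family 8 was higher in GC in the Sle1b pair of batch 2 and lower in the other pairs of batches 1 and 2. The family count is thus not separate from that segment. In batch 3 the 0% in Ifnar1KO GC cells rests on 45 Ighv reads, where up to 6.67% could have been missed, above the lowest non-GC value. The 3.54% in Sle1b GC cells of that batch is 1 read of Ighv8-6. The 0% in Ifnar1KO GC cells of batch 2 rests on 159 reads, where up to 1.89% could have been missed. Family 14 was lower in GC in 5 of 6 pairs and at 0 in both Sle1b libraries of batch 3, with a mean difference of -2.69 percentage points. Family 6 was higher in GC in 5 of 6 pairs, at 3.36%, 19.6% and 10.5% in Ifnar1KO GC against 2.60%, 2.14% and 0.964% in Ifnar1KO non-GC, and at 3.21% and 3.94% in Sle1b GC against 1.54% and 1.59% in Sle1b non-GC libraries of batches 1 and 2. In batch 3 it was at 0% in Sle1b GC against 18.6% in Sle1b non-GC cells. Of its 19.6% in the Ifnar1KO GC library of batch 2, Ighv6-4 made up 13.1 points on 20 reads.

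**Figure D4:**
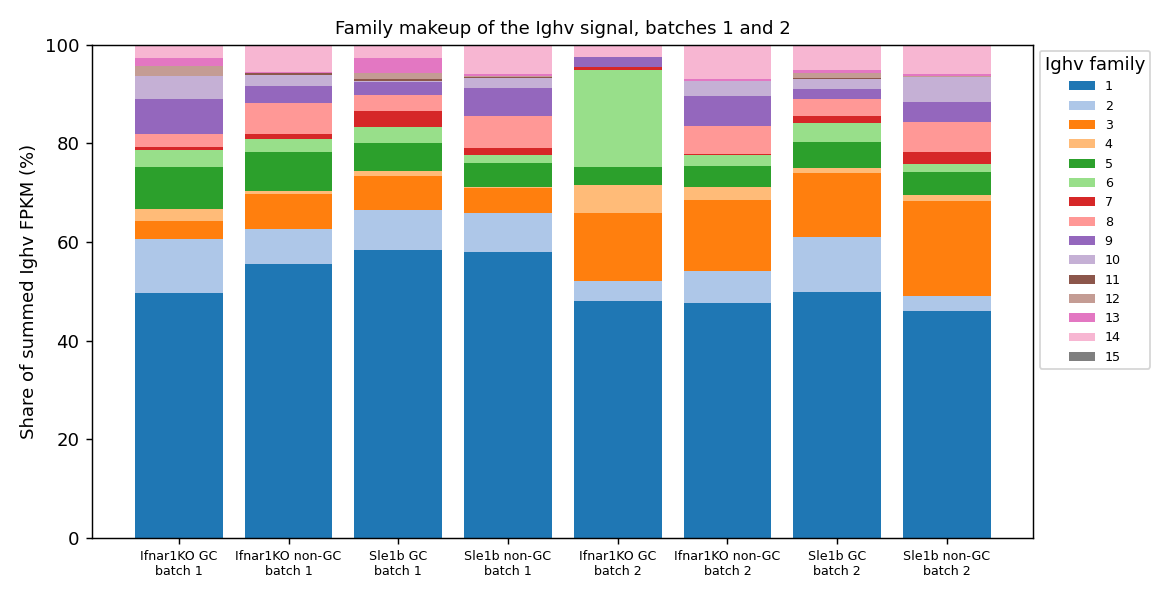
Share of the summed Ighv FPKM (%) of each Ighv family, stacked, in the 8 libraries of batches 1 and 2. Family 1 makes up 46% to 58.4% of each bar, family 3 is larger in batch 2, and family 8 is thinner in every GC bar than in its non-GC partner.

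Between genotypes, 0 of 93 segments were called in any comparison. For Ifnar1KO against Sle1b, 0% of all genes were called in non-GC cells, 0% in GC cells and 0% in the average over cell types, and 5, 8 and 6 Ighv segments had an unadjusted p under 0.05. These were 5.38%, 8.6% and 6.45% of the segments, where 1.66%, 6.57% and 3.95% of all genes had such a p. The interaction of genotype and cell type called 0% of all genes and had 6 Ighv segments (6.45%) at an unadjusted p under 0.05, where 3.74% of all genes had. The median Ighv log2 difference was 0.03 in non-GC and -0.46 in GC cells, against 0.01 and -0.25 for all genes. Counted as shares in batches 1 and 2 and named after their values were seen, 4 of the 122 segments were higher in Ifnar1KO in 4 of 4 pairs, Ighv1-55, Ighv1-69, Ighv4-1 and Ighv5-12, and 5 were lower, Ighv1-18, Ighv1-74, Ighv1-84, Ighv2-9-1 and Ighv5-9-1. These counts have no background over all genes either, and no excess is claimed. Ighv5-12 was at 1.24% and 0.663% in Ifnar1KO GC against 0% and 0% in Sle1b GC, and at 0.531% and 0.166% in Ifnar1KO non-GC against 0% and 0% in Sle1b non-GC libraries. Its Ifnar1KO shares of batch 2 amount to about 1 read each, where 1 read was worth about 2.23 FPKM in GC and 1.32 FPKM in non-GC cells. Ighv5-12 had the smallest unadjusted p of the averaged genotype comparison, with a log2 difference of 1.78 (SE 0.56, adjusted p = 0.993 by limma). The 0 reads of the Sle1b libraries allow up to 0.299%, 0.581%, 0.119% and 0.239% of Ighv reads, so a share like that of the Ifnar1KO non-GC library of batch 2 would not be detectable in 3 of the 4.

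Of the segments known in mice for particular antigens, Ighv1-72 was above 0 in all 8 libraries of batches 1 and 2. Ighv11-2 and Ighv12-3 are known from B-1 cells that bind phosphatidylcholine, Ighv7-1 from antibodies to phosphorylcholine, and Ighv1-72 from the response of C57BL/6 mice to a nitrophenyl hapten. Of these 4, 3 passed the filter and 0 were called in any comparison. Ighv1-72 was at 5.16% and 2.16% in Ifnar1KO GC against 1.70% and 1.34% in Ifnar1KO non-GC, and at 0.977% and 4.02% in Sle1b GC against 2.39% and 1.30% in Sle1b non-GC libraries of batches 1 and 2. Ighv12-3 was at 1.97% and 0% in Ifnar1KO GC against 0.0279% and 0% in Ifnar1KO non-GC, and at 1.19% and 1.07% in Sle1b GC against 0.213% and 0.253% in Sle1b non-GC libraries. Ighv7-1 and Ighv11-2 reached at most 1.43% and 0.234%. Over the window compared, Ighv1-72 is 99% identical to Ighv1-62-3 and Ighv11-2 is 98.67% identical to Ighv11-1. Their reads can therefore be assigned to the wrong relative.

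Non-GC libraries shared more of their usage with each other than GC libraries did in batches 1 and 2. Shared usage is the sum over segments of the smaller of the 2 shares. Between Ifnar1KO and Sle1b libraries of the same batch it was 43% and 37.8% in GC cells of batches 1 and 2, against 77.5% and 65.8% in non-GC cells. Between batches 1 and 2 it was 24.6% in Ifnar1KO GC and 50.8% in Sle1b GC cells, against 65.8% in Ifnar1KO non-GC and 60% in Sle1b non-GC cells. All 6 values among the 4 GC libraries, 24.6% to 53.7%, lay below all 6 among the 4 non-GC libraries, 60% to 77.5%. The lowest values involved the Ifnar1KO GC library of batch 2, with 159 reads, and the part of depth in this difference was not tested. In batch 3 the 2 genotypes shared 8.92% in GC and 6.77% in non-GC cells.

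**Figure D5:**
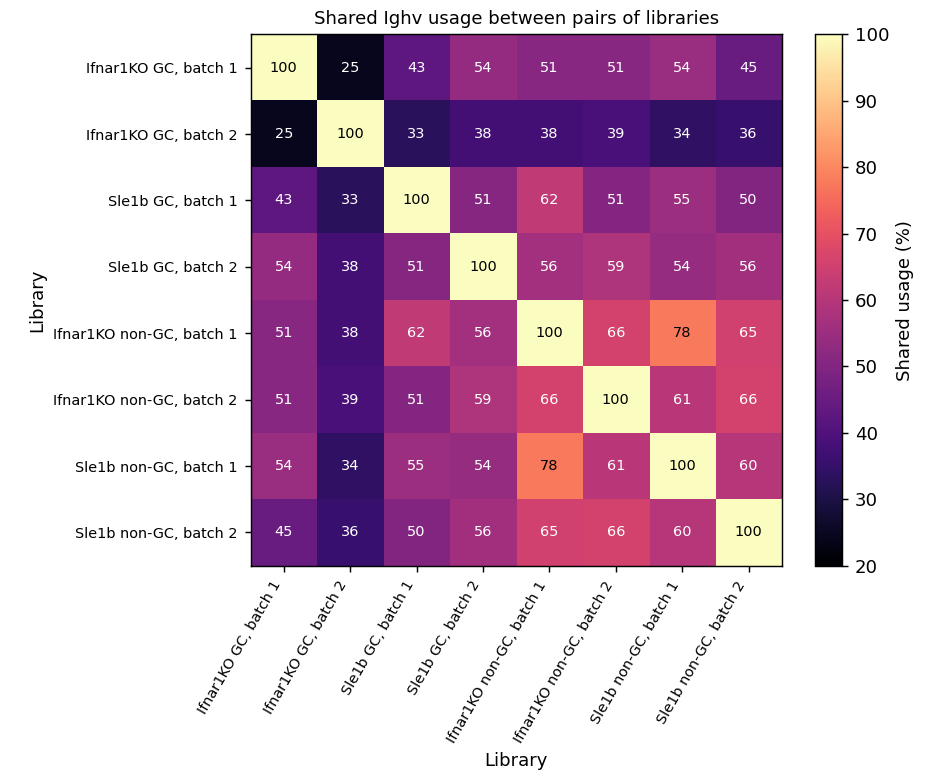
Shared Ighv usage (%) for every pair of the 8 libraries of batches 1 and 2, with GC libraries in the upper rows and left columns. Pairs of non-GC libraries share 60% to 77.5%, pairs of GC libraries 24.6% to 53.7%.

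Along the locus, the 113 variable genes were cut into 4 blocks of 28 or 29 by position, from the end nearest the constant genes. The blocks held 24.4%, 28.7%, 20.4% and 25.25% of the signal in Ifnar1KO GC against 20.4%, 23.3%, 25.9% and 28.8% in Ifnar1KO non-GC libraries of batch 1. In Sle1b cells of that batch they held 16.5%, 21.3%, 25.3% and 33.7% in GC against 16.8%, 26.9%, 23.4% and 32.1% in non-GC libraries. In batch 2 they held 12.8%, 36.5%, 15.9% and 11.9% in Ifnar1KO GC against 18%, 28.9%, 23.6% and 22.2% in Ifnar1KO non-GC libraries, and 24.1%, 26.9%, 22.7% and 24% in Sle1b GC against 17%, 34.9%, 22.5% and 23.1% in Sle1b non-GC libraries. The rest of each library's signal lay on pseudogenes.

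Genes that make, mutate or carry the heavy chain were measured beside the segments. Of 11 genes of somatic hypermutation, 10 passed the filter and 0 were called in the averaged comparison. The median log2 difference of the 10 was 0.88, with 8 above 0, against -0.25 for all genes. Of 10 genes of V(D)J recombination, the joining of segments, 6 passed and 0 were called, and Rag2, a subunit of the recombinase, was at 0 in 7 of the 8 libraries of batches 1 and 2. Of 7 partners of the heavy chain in the receptor, 4 passed and 0 were called, and all 4 lay below 0 with a median log2 difference of -1.15. Of the 9 measured genes of heavy chain transcription, 9 passed and 0 were called. Of the 7 measured items of the heavy constant genes, 7 passed and 0 were called, with 6 above 0 and a median of 2.87. Ighg1 had a log2 difference of 3.83 (SE 0.62, adjusted p = 0.0577), and the joint item Ighd,Ighm, the isotypes of naive B cells, had -1.08 (SE 0.53, adjusted p = 0.307). Markers of other cells were measured as well, and 0 were called in the averaged comparison among the 7 tested plasma cell, 4 B-1 cell, 5 T cell, 5 myeloid, 4 plasmacytoid dendritic and 5 erythroid markers. The plasma cell markers, genes of antibody-secreting cells, summed to 48.8 and 103 FPKM in Ifnar1KO GC against 37.9 and 35.1 FPKM in Ifnar1KO non-GC libraries of batches 1 and 2, and to 52.5 and 101.3 FPKM in Sle1b GC against 41.6 and 40.3 FPKM in Sle1b non-GC libraries. The B-1 cell markers summed to 15.3 and 27.7 FPKM in Ifnar1KO GC against 4.32 and 12.6 FPKM in Ifnar1KO non-GC libraries, and to 16.6 and 18.6 FPKM in Sle1b GC against 6.46 and 10.1 FPKM in Sle1b non-GC libraries. Both sums were higher in GC in 4 of 4 pairs. Of all 13764 genes, taken singly, 7.66% were, which is no background for a sum over several genes. The single plasma cell markers were split in the averaged comparison, with 4 of the 7 tested above 0 and 3 below. The 4 tested B-1 cell markers all lay above 0. The T cell markers summed to 26.8 FPKM in Ifnar1KO GC and 73.7 FPKM in Sle1b GC cells of batch 3, above the pan-B sums of 22.7 and 19.9 FPKM there, against 8.09 FPKM in Ifnar1KO non-GC and 6.24 FPKM in Sle1b non-GC cells. In the Sle1b GC library of batch 1 the myeloid markers summed to 167.9 FPKM, against 22.2 FPKM in its non-GC partner, and the erythroid markers to 78.7 FPKM, against 7.54 FPKM. The part of these cells in the Ighv differences was not tested. The 20 diversity segments, which are short, were listed at 0 in all 12 libraries.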

How the data were processed

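RNA of sorted spleen B cells was sequenced in 12 libraries, amplified with an ultra-low-input kit and tagmented, per the labels' protocols. The submitters' processing notes name Cuffdiff and Cufflinks 2.2.1, TopHat2 2.0.9 with Bowtie2 2.1.0, and CASAVA, with build GRCm38. The authors deposited FPKM in 17 pairwise tables of 506504 loci, each comparing 2 libraries of 1 batch and scaled on its own. A library's values were proportional between its tables, so each library was given 1 scale factor by least squares within its batch. An earlier analysis of these tables joined them gene by gene instead. Values of different batches rest on tables scaled apart from each other. Rows of 1 symbol were summed (189 Ighv rows, 183 symbols), and 9 failed items were left out.

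Tests used limma 3.58.1 in R 4.3.3 on log2(FPKM + 1), two-sided, with a trend and batch as a block (6 residual degrees of freedom). Batch and replicate number coincide, and the block rests on the tables, which pair libraries within batches. Deviations from group means correlated by at least 0.289, 0.401 and 0.524 within batches 1, 2 and 3, but by up to 0.455 between batches 1 and 2. No 2 libraries were identical.

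Reads were estimated, as a description, from the FPKM of 1 read as a smooth function of length on unnamed loci of 290 to 540 bases. All low values there (up to 5.5 reads) came out whole within 0.1 read; this range was narrowed after a wider one gave a poorer match in 1 library. Of 215 low Ighv values, 180 came out whole. Ighv lengths came from the longest GENCODE vM21 transcript, and the count test was not run. The fit was tested on simulated data. Sequences are from GENCODE vM21. No source used here states stranded counting. Segments named are the 10 with the highest mean share, the leader of each library, the 3 largest share differences in each direction, and any called. Members and lists were chosen with earlier results of these data known.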

Additional observations from a re-analysis of the deposited data

How the results depend on the processing

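Under 17 alternatives for each of the 7 limma comparisons (no replicate block, a pseudocount of 0.1 FPKM, no filter, without batch 3, batches 1 and 2 with the filter redone, and each library left out), 0 Ighv segments were called, with 1 exception. In batches 1 and 2 with the filter redone, 6 were called for GC against non-GC averaged over genotypes. Without the replicate block the count stayed at 0 in all 7 comparisons, and leaving out each library gave 0 in all 7. The log2 difference of Ighv8-12 ran from -5.19 to -2.89 and its adjusted p from 0.0108 to 0.97. With each library left out, the effective number differed by -16.6 to -11 segments between GC and non-GC, and by -4.06 to 0.0913 between Ifnar1KO and Sle1b. The leading share then differed by 4.42 to 12.2 percentage points, the share of named FPKM by -0.319 to -0.172 points and the shared usage of the genotypes, GC minus non-GC, by -41.7 to -6.37 points. Of 450 share differences of the 15 named segments under the alternatives, 44 had the opposite sign. Among these 44 were 10 of the 30 differences taken without batch 3. Depth limits single segments most: batch 3 had 42.4 to 203.4 Ighv reads in a library and the Ifnar1KO GC library of batch 2 had 159.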
